A study of Mus musculus with 2 samples.

Results

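The 7 genes described here, Slc7a11, Slc3a2, Gclc, Gclm, Gss, Gsr and Ggct, bring cystine into the cell and make and recycle glutathione. They were taken as a list by name from the 18595 genes of the expression table, and all 7 were found. Single cells of the mouse esophagus were compared between a Keap1 cKO library (genotype K5CreERT2::Keap1 floxB/floxB) and a control library (genotype Keap1 floxB/floxB). Both genotypes were on a hybrid background of C57BL/6J and BALB/c, and both carried the floxed Keap1 alleles. The Cre recombinase, present only in the Keap1 cKO genotype, is inducible and driven by the keratin 5 promoter, which is active in basal keratinocytes. The muscle layers had been removed, and the tissue was dispersed with trypsin-EDTA and a gentleMACS dissociator before droplet capture with 10x Genomics 3′ chemistry, in which each captured RNA molecule carries a unique molecular identifier (UMI). The sources used here do not give how many animals entered each library, their age or the time after induction of Cre.

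Glutathione is the main small thiol of the cell. Its scarce building block is cysteine, which cells take up as the disulfide cystine through system xc-, an exchanger made of the transporter xCT (Slc7a11) and the heavy chain CD98hc (Slc3a2). Glutamate-cysteine ligase, made of a catalytic subunit (Gclc) and a modifier subunit (Gclm), joins glutamate to cysteine in the rate-limiting step, glutathione synthetase (Gss) adds glycine, glutathione reductase (Gsr) restores the oxidised form with NADPH, and gamma-glutamylcyclotransferase (Ggct) acts in the breakdown of gamma-glutamyl peptides. KEAP1 hands NRF2, the transcription factor encoded by Nfe2l2, to the proteasome through a ubiquitin ligase, and Slc7a11, Gclc, Gclm and Gsr are textbook NRF2 targets that carry antioxidant response elements. Slc7a11 is also a target of ATF4, the transcription factor of the amino acid response.

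The mm10 positions in the GENCODE annotation were chromosome 3, 49892526 to 50443614, minus strand, for Slc7a11, chromosome 19, 8706882 to 8723369, minus strand, for Slc3a2, and chromosome 9, 77754535 to 77794485, plus strand, for Gclc. Gclm lay on chromosome 3 at 122245557 to 122270732 on the plus strand, and Gss on chromosome 2 at 155563181 to 155592810 on the minus strand. Gsr lay on chromosome 8 at 33652523 to 33698163 on the plus strand, and Ggct on chromosome 6 at 54982580 to 54992950 on the minus strand. All 7 are annotated as protein coding.

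Promoter sequences from RefSeq (GRCm38.p6) were at hand for 5 of the 7 genes: Slc7a11, Gclm, Ggct, Gss and Slc3a2. The 250 bases before the annotated start were searched on both strands for the core of the antioxidant response element (TGACNNNGC), the motif through which NRF2 acts, and for the CARE motif (TGATGNAA), through which ATF4 acts. The 3 stretches shown are those that hold a match, from genes of cystine uptake, the ligase and breakdown. The Slc7a11 stretch is chr3:50443624-50443723 on the minus strand, the Gclm stretch chr3:122245367-122245486 on the plus strand and the Ggct stretch chr6:54992978-54993097 on the minus strand. Each is written 5′ to 3′ on the gene's strand, with matches in capitals.
Slc7a11: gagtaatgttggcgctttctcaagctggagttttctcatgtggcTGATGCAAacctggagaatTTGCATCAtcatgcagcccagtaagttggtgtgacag
Gclm: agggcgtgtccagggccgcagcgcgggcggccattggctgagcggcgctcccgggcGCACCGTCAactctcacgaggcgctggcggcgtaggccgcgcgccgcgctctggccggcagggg
Ggct: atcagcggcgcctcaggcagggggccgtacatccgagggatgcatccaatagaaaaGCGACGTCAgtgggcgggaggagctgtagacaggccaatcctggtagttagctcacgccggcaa
Slc7a11 had 2 CARE matches, at bases -66 to -59 on the gene's strand and at -47 to -40 on the opposite strand, counted back from -1 as the base before the start. Gclm had 1 core element match on the opposite strand, at -134 to -126, and Ggct had 1 on the opposite strand, at -174 to -166. These positions count from the RefSeq start, which for Ggct lies downstream of the GENCODE start at base 54992950. The Ggct match is thus nearer to the GENCODE start, and part of the searched window lies within the GENCODE transcript. No match lay in the windows of Gss and Slc3a2. Of 32851 RefSeq promoters searched in the same way, 10.2% held the core element and 3.45% held CARE, and 13 promoters (0.0396%) held at least 2 CARE matches. No match of either motif overlapped one of the other in these genes. A match is a description of the letters, and elements can lie outside this window.

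The Keap1 cKO library held 2381 cells with 26036522 UMIs, and the control library 2472 cells with 30501227 UMIs. With 1 library per genotype no test between genotypes was possible, so no p-value is given, and all intervals are exact 95% intervals that cover counting error only. A total of 5 cell barcodes occurred in both libraries. The authors annotated 422 Keap1 cKO cells and 848 control cells as epithelial, at median depths of 5072.5 UMIs in Keap1 cKO and 17667 UMIs in control cells. Among their clusters, cluster 4 is called basal-like here (Col17a1, Trp63, Krt5 and Krt14 among its leading genes), cluster 13 suprabasal-like (Krt4 and Krt13) and cluster 9 cornified-like (Lor and Crct1). Cluster 10, of low depth, also held T cell and globin RNA, and clusters 14 and 15 are given by number. Keap1 stood at 44.6 UMIs per 1000000 (CPM) in Keap1 cKO epithelial cells and 69.8 CPM in control epithelial cells, a log2 ratio of -0.65 (-0.83 to -0.47), and Nfe2l2 had a log2 ratio of 0.07 (-0.01 to 0.15). The sources used here do not say which exons are floxed, so Keap1 UMIs may not measure the deletion.

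In the epithelium 6 of the 7 genes were at least 1.5-fold higher in the Keap1 cKO library and none was lower, against 17.5% higher and 15.8% lower among all 12638 genes with at least 20 UMIs. Their median log2 ratio was 1.498, beside -0.02 over all genes. In such sums more cells with a transcript and more transcript per cell cannot be told apart. The cystine transporter gene Slc7a11 had 817 UMIs, or 109.6 CPM, in Keap1 cKO epithelial cells and 22 UMIs, or 1.60 CPM, in control epithelial cells, a log2 ratio of 6.10 (5.49 to 6.78). That ratio was 4.63 with means over cells and 3.92 with clusters weighted equally. Its partner Slc3a2 had 129.4 CPM in Keap1 cKO and 88.5 CPM in control cells, a log2 ratio of 0.55 (0.42 to 0.67), and was the gene under the 1.5-fold mark. The counting intervals of the ratios of these 2 chains of an exchanger did not overlap.

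Both subunits of glutamate-cysteine ligase were higher, the catalytic one by more. Gclc stood at 396.8 CPM in Keap1 cKO and 42.5 CPM in control epithelial cells, a log2 ratio of 3.22 (3.09 to 3.35), which was 2.59 without cluster 9 and 3.86 with means over cells. Gclm stood at 624 CPM in Keap1 cKO and 298 CPM in control cells, 1.07 (1.004 to 1.13), which was 1.66 with clusters weighted equally and 0.72 without cluster 9. Glutathione synthetase, Gss, had 139.1 CPM in Keap1 cKO and 49.3 CPM in control cells, 1.498 (1.36 to 1.64). Glutathione reductase, Gsr, had 105.7 CPM in Keap1 cKO and 21.7 CPM in control cells, 2.28 (2.09 to 2.48). Ggct, which acts in breakdown, had 14.4 CPM in Keap1 cKO and 8.79 CPM in control cells, 0.71 (0.32 to 1.10), but -0.42 when levels were averaged over cells in place of summed UMIs, so its direction depended on how cells were weighted. The other 6 genes had a positive ratio in every alternative run.

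**Figure D1:**
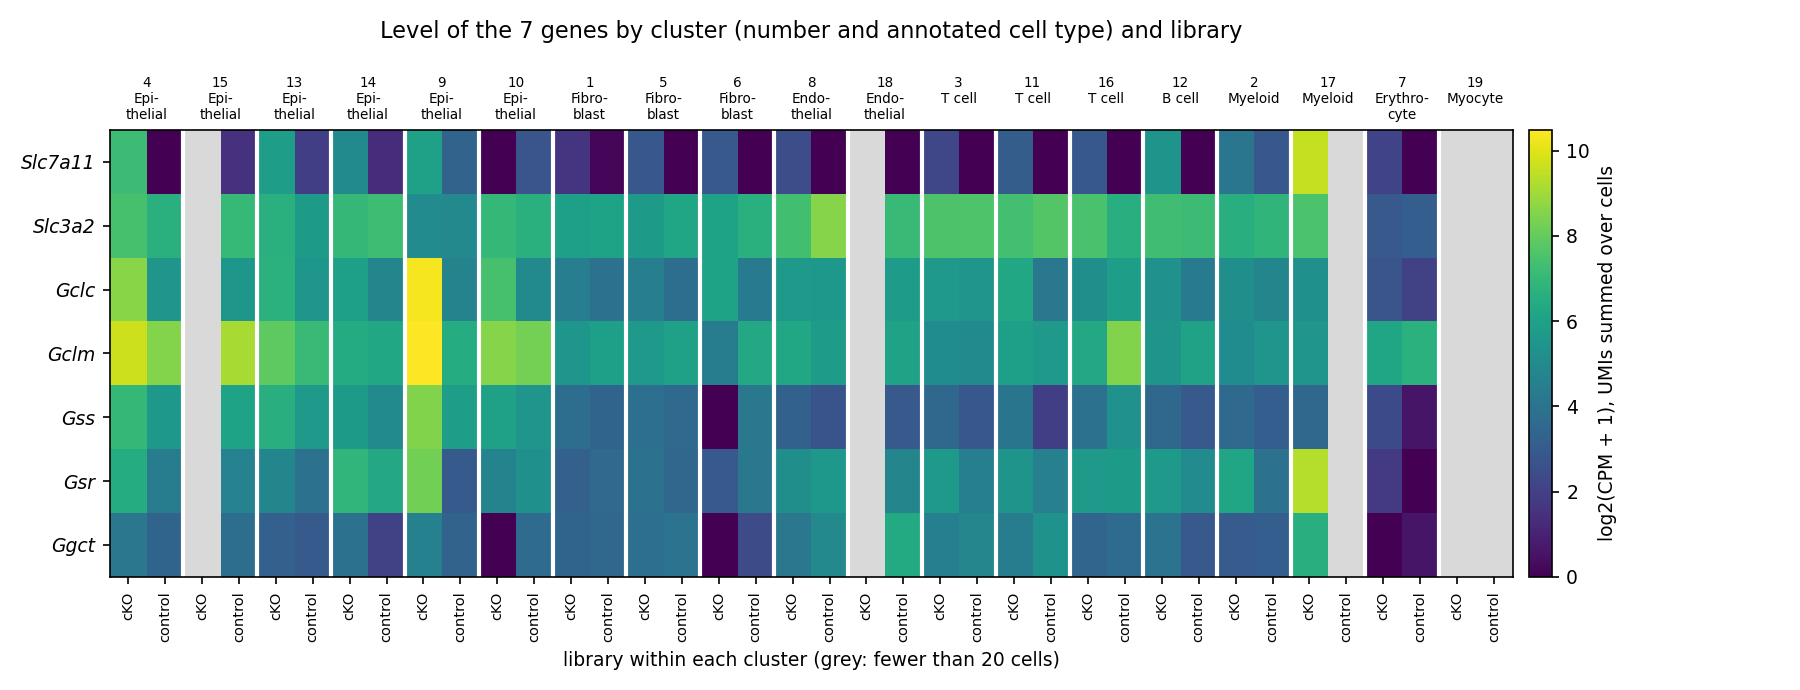
Level of the 7 genes, as log2(CPM + 1) of UMIs summed over cells, in each of the 19 clusters (number and annotated cell type above) with the Keap1 cKO library left of the control library; grey marks fewer than 20 cells. Gclc and Gclm are brightest in Keap1 cKO cells of cluster 9 (1312 and 1435 CPM), while Slc7a11 and Gsr are brightest in Keap1 cKO cells of cluster 17, annotated as myeloid (750.7 and 643.4 CPM).

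The size of the difference and the gene that led it varied between clusters of the epithelium. In the basal-like cluster 4 (93 Keap1 cKO and 313 control cells) all 7 genes were at least 1.5-fold higher, against 18.9% of 10956 genes, with a median log2 ratio of 1.38. Slc7a11 had 382 UMIs in Keap1 cKO cells and 0 UMIs among the 6496387 UMIs of control cells there, at least 316.6-fold higher when the control sum is set to 3 counts. Gclc stood at 396.5 CPM in Keap1 cKO and 43.7 CPM in control cells of cluster 4, a log2 ratio of 3.18 (2.99 to 3.38), and Gsr at 89.9 CPM in Keap1 cKO and 20.47 CPM in control cells, 2.14 (1.82 to 2.45). Gss had a log2 ratio of 1.38 (1.15 to 1.61), Gclm 1.15 (1.07 to 1.24), Ggct 0.84 (0.25 to 1.43) and Slc3a2 0.80 (0.62 to 0.97). These values lean on a few cells: without the 5 cluster 4 cells that held the most Slc7a11, Gclc stood at 91.5 CPM in Keap1 cKO cells, beside 43.7 CPM in control cells, a log2 ratio of 1.07 (0.80 to 1.33). The Slc7a11 bound was then 64.2-fold, from 69 UMIs in 88 Keap1 cKO cells, Gsr had 1.31 (0.94 to 1.68), Slc3a2 0.41 (0.21 to 0.61), and 6 of the 7 genes were at least 1.5-fold higher, with a median of 1.004. The make-up of the cluster also differed: cycling markers summed to 1003 CPM in Keap1 cKO and 160.4 CPM in control cells, and cornified markers to 1704 CPM in Keap1 cKO and 163 CPM in control cells. Against other epithelial cells the histone genes Hist1h2ap, Hist1h1b and Hist1h2ae were among its leading genes. The part of these markers in the values was not tested.

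In the cornified-like cluster 9 (140 Keap1 cKO and 114 control cells) 6 of 7 genes were at least 1.5-fold higher, against 19.8% of 4713 genes (30.2% were lower), and the median log2 ratio was 2.82. The markers of the cluster differed too, with suprabasal markers at 17240 CPM in Keap1 cKO and 71940 CPM in control cells, cornified markers at 18420 CPM in Keap1 cKO and 28760 CPM in control cells, and basal markers at 4425 CPM in Keap1 cKO and 2426 CPM in control cells; their part in the values was not tested. Enzymes of synthesis and recycling led here. Gclc had 1280 UMIs (1312 CPM) in Keap1 cKO and 11 UMIs (24.8 CPM) in control cells, a log2 ratio of 5.73 (4.88 to 6.73). Gsr had 300 UMIs in Keap1 cKO and 3 UMIs in control cells, 5.51 (3.95 to 7.79). Gclm stood at 1435 CPM in Keap1 cKO and 90.2 CPM in control cells, 3.99 (3.54 to 4.48), and Gss at 358.7 CPM in Keap1 cKO and 56.4 CPM in control cells, 2.67 (2.08 to 3.32). Slc7a11 had 62 UMIs in Keap1 cKO and 4 UMIs in control cells, 2.82 (1.39 to 4.74). Slc3a2, with 32 UMIs in Keap1 cKO and 13 in control cells, had 0.16 (-0.81 to 1.22), and Ggct, with 23 UMIs in Keap1 cKO and 4 in control cells, had 1.39 (-0.16 to 3.38), with the opposite direction as means over cells (7.81 CPM in Keap1 cKO and 13.7 CPM in control cells); both intervals include 0. The intervals of Gclc, Gclm, Gss and Gsr in cluster 9 lay wholly above those in cluster 4, which covers counting error only and is not a test between clusters. The cluster 9 values, too, lean on few cells. For Gclc 50% of UMIs lay in 9 of the 140 Keap1 cKO cells, for Gclm in 8, for Gss in 9 and for Gsr in 7. The 5 highest cells held 500 of the 1280 Gclc UMIs, and a single cell held 12 of the 23 Ggct UMIs. The part of these cells in the ratios was not tested.

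The suprabasal-like cluster 13 (61 Keap1 cKO and 134 control cells) had a smaller median ratio, and its largest ratio was that of Slc7a11. Its markers differed between libraries as well. Basal markers summed to 9379 CPM in Keap1 cKO and 4848 CPM in control cells, and suprabasal markers to 24240 and 37590 CPM. Cornified markers summed to 7382 CPM in Keap1 cKO and 6254 CPM in control cells, and fibroblast markers to 884.6 and 199.6 CPM. Their part in the values of this cluster was not tested. Here 6 of 7 genes were at least 1.5-fold higher, against 14.3% of 9875 genes, with a median log2 ratio of 0.97. Slc7a11 had 139 UMIs in Keap1 cKO and 12 UMIs in control cells, a log2 ratio of 4.33 (3.48 to 5.32). With each cell thinned to 2000 UMIs, it was seen in 2 of 59 Keap1 cKO and 1 of 133 control cells, with overlapping intervals. Gclc had 1.23 (0.95 to 1.51), Gss 1.03 (0.75 to 1.31), Slc3a2 0.97 (0.70 to 1.24), Gsr 0.94 (0.41 to 1.47) and Gclm 0.77 (0.60 to 0.94), while Ggct had 0.26 (-0.64 to 1.13). In the same cells Nqo1, a quinone reductase and another NRF2 target, was lower, at 59.9 CPM in Keap1 cKO and 120.9 CPM in control cells, a log2 ratio of -1.01 (-1.29 to -0.74). Nqo1 had 3.28 (2.76 to 3.85) in cluster 9, 0.62 (0.40 to 0.84) in cluster 4 and 0.84 (0.73 to 0.96) in all epithelial cells. Cluster 10 gave 4 measured genes, of which Gclc was at least 1.5-fold higher (2.46, 1.21 to 3.74, from 14 UMIs in Keap1 cKO and 11 in control cells), against 26.3% of 2681 genes. T cell markers summed to 1297 CPM in its Keap1 cKO cells and 185 CPM in its control cells, and their part in the value was not tested.

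**Figure D2:**
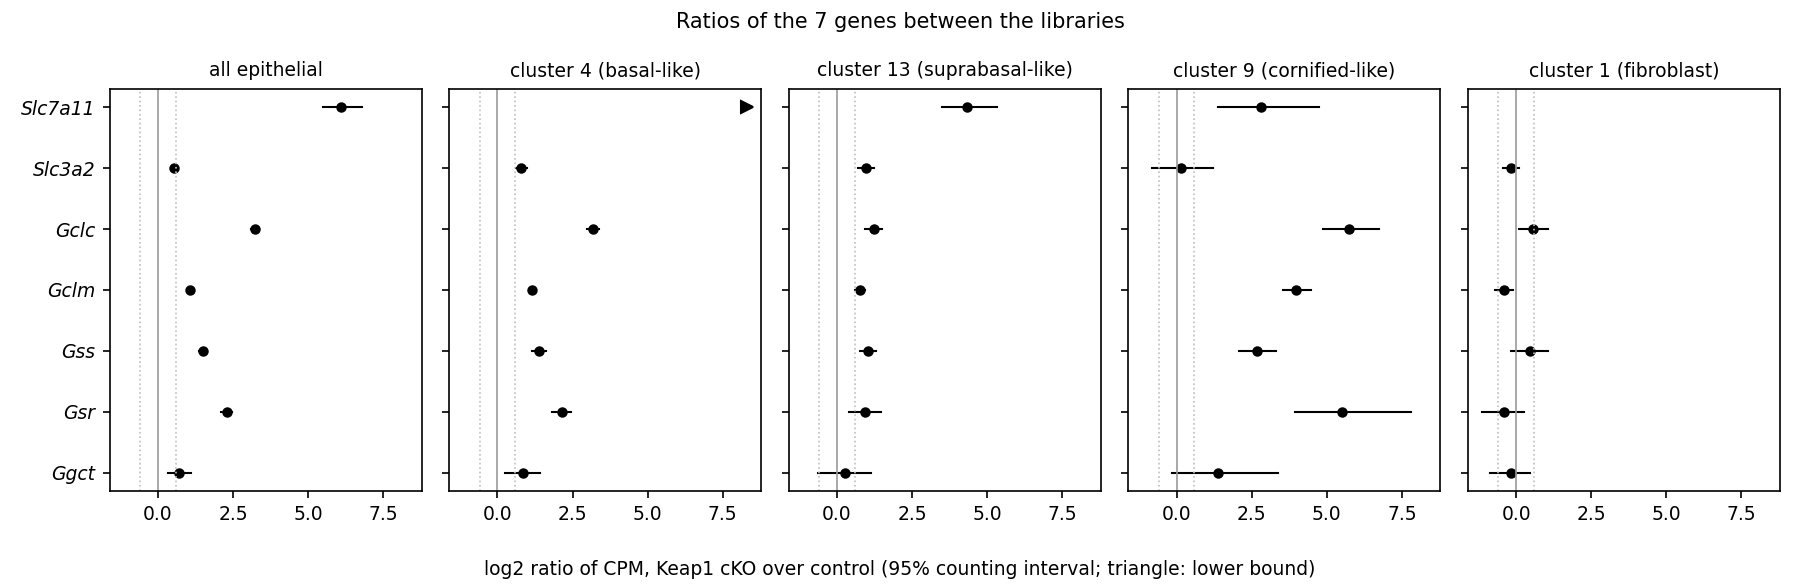
Log2 ratio of CPM, Keap1 cKO over control, for the 7 genes in all epithelial cells, in clusters 4, 13 and 9 and, for contrast, in fibroblast cluster 1; bars are 95% counting intervals, dotted lines mark 1.5-fold, and the triangle is the lower bound for Slc7a11 in cluster 4, where the control had 0 UMIs. Gclc and Gsr reach 5.73 and 5.51 in cluster 9, against 3.18 and 2.14 in cluster 4.

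The make-up of the ligase transcripts also differed between libraries. Gclc gave 32.2% (30.6 to 33.9) of the joint Gclc and Gclm UMIs in Keap1 cKO cells of cluster 4 and 10.5% (9.33 to 11.7) in control cells. The cluster 4 share leaned on the 5 cells with the most Slc7a11. Without them the other 88 Keap1 cKO cells held 213 Gclc and 1362 Gclm UMIs, and control cells 284 Gclc and 2433 Gclm UMIs. The log2 ratios between libraries were then 1.07 (0.80 to 1.33) for Gclc and 0.64 (0.55 to 0.74) for Gclm. With all cells of cluster 4 they were 3.18 and 1.15, so the 2 genes then lay closer together. In cluster 9 Gclc gave 47.8% (45.9 to 49.7) in Keap1 cKO and 21.6% (11.3 to 35.3) in control cells. In cluster 13 it gave 30.9% (27.7 to 34.2) in Keap1 cKO and 24.6% (21.6 to 27.8) in control cells, where the intervals just overlap. Slc7a11 gave 26.9% (24.6 to 29.3) of the joint Slc7a11 and Gclc UMIs in Keap1 cKO cells of cluster 4 and 35.6% (30.8 to 40.5) in cluster 13, but 4.62% (3.56 to 5.88) in cluster 9. Within the Keap1 cKO library the balance of transporter to ligase transcripts differed between these clusters.

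Clusters 14 and 15, which held too few cells for a ratio, are given as UMIs. Over all genes cluster 14 held 1059801 UMIs in Keap1 cKO and 659965 UMIs in control cells. Cluster 15 held 303489 UMIs in Keap1 cKO and 1616695 UMIs in control cells, so sums of the 2 libraries are not on the same scale. In cluster 14 (40 Keap1 cKO and 42 control cells, median depths 27848 UMIs in Keap1 cKO and 3547.5 UMIs in control cells) Keap1 cKO cells held 33 Slc7a11, 132 Slc3a2, 63 Gclc, 93 Gclm, 55 Gss, 126 Gsr and 15 Ggct UMIs, and control cells held 1 Slc7a11, 99 Slc3a2, 18 Gclc, 49 Gclm, 20 Gss, 52 Gsr and 2 Ggct UMIs. In cluster 15, whose leading genes included the mitosis genes Cdc20 and Ccnb1, 7 Keap1 cKO cells held 201 Slc7a11, 312 Gclc and 384 Gclm UMIs, and 75 control cells held 3 Slc7a11, 74 Gclc and 901 Gclm UMIs. A single Keap1 cKO cell held 198 of the 201 Slc7a11, 294 of the 312 Gclc and 199 of the 384 Gclm UMIs.

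The Slc7a11 UMIs of the Keap1 cKO epithelium came from few cells. Of 817 UMIs, 50% lay in 4 of 422 cells, and the single highest cell held 198. The libraries differ in cell number and depth, and no such count was made over all UMIs. Counts of cells in the 2 libraries are thus not on the same scale. For Gclc 50% of UMIs lay in 9 Keap1 cKO cells and 85 of 848 control cells. The same share took 18 Keap1 cKO and 57 control cells for Gsr, 25 Keap1 cKO and 143 control cells for Gclm, 32 Keap1 cKO and 128 control cells for Slc3a2, 34 Keap1 cKO and 91 control cells for Gss, and 17 Keap1 cKO and 38 control cells for Ggct. The 6 epithelial cells with the most Slc7a11, chosen after their values were seen, comprised 5 cells of cluster 4 and 1 of cluster 15, had 46876 to 81426 UMIs each, and held 4.83% of all Keap1 cKO epithelial UMIs. They held 62.6% of the Slc7a11 UMIs, 37.8% of Gclc, 21.8% of Gclm, 21.4% of Slc3a2, 20.9% of Gsr, 13.4% of Gss and 5.61% of Ggct. All 6 held keratinocyte RNA, with 96 to 464 Krt5 UMIs each. The neutrophil genes Cxcr2 and Retnlg and the T cell gene Cd3e were at 0 in all 6, and Csf3r had 1 UMI in 1 of them. S100a8, the fourth gene of the neutrophil list, had 2 to 8 UMIs in each of the 6, and the fibroblast gene Col1a1 had 2 to 7; their part in the Slc7a11 values was not tested.

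Without those 6 cells, Slc7a11 still stood at 43.1 CPM in the other 416 Keap1 cKO cells, beside 1.60 CPM in the control library, a log2 ratio of 4.76. Gclc then stood at 259.4 CPM (2.61), Gclm at 512.5 CPM (0.78), Gsr at 87.8 CPM (2.02) and Slc3a2 at 106.9 CPM (0.27). The count of genes at least 1.5-fold higher stayed at 6.

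**Figure D3:**
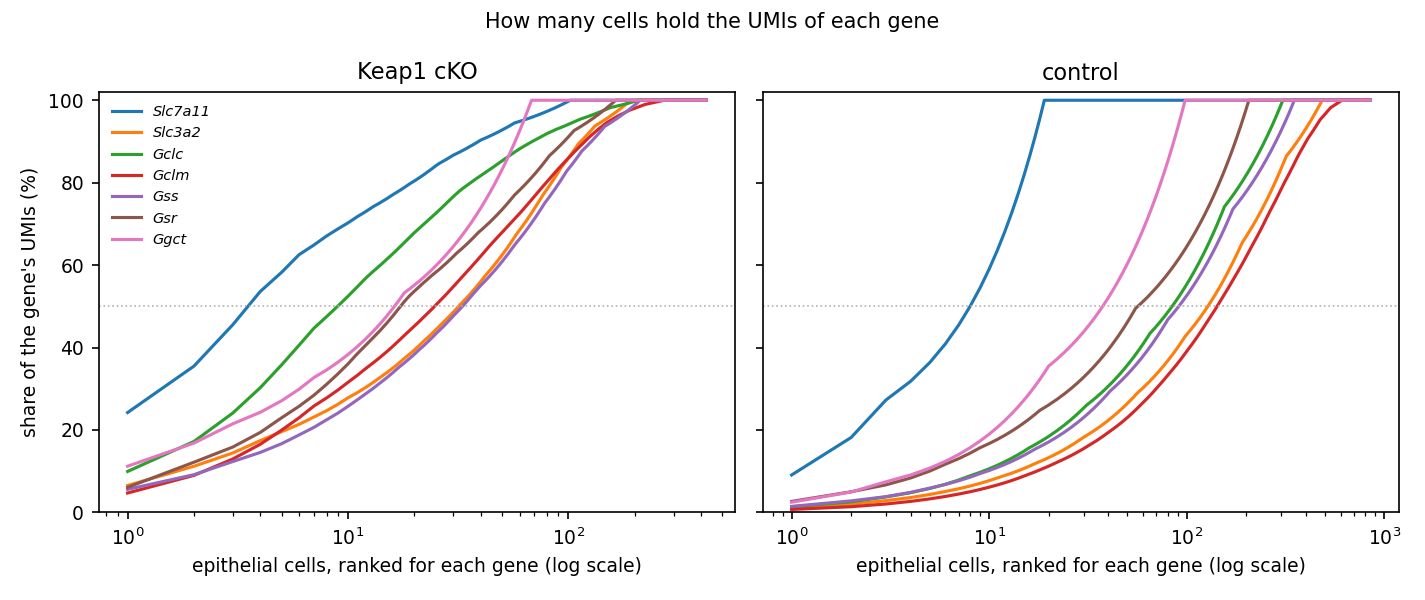
Cumulative share of each gene's UMIs (y axis, percent) over epithelial cells ranked from the highest for that gene (x axis, log scale), Keap1 cKO left and control right; the dotted line marks 50%. Slc7a11 and Gclc reach 50% after 4 and 9 Keap1 cKO cells, whereas Gclc needs 85 control cells. The libraries differ in cell number and depth, and the control curve of Slc7a11 rests on 22 UMIs.

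Depth differed between libraries, so shares of cells were compared after each epithelial cell had been thinned to 2000 UMIs, which kept 264 Keap1 cKO cells (158 shallower ones left out) and 626 control cells (222 left out). Slc7a11 was then seen in 26 Keap1 cKO cells, 9.85% (6.54 to 14.1), and in 3 control cells, 0.479% (0.0989 to 1.39); unthinned, the shares were 24.2% in Keap1 cKO and 2.24% in control cells. T cells had an Slc7a11 UMI at the same depth in 0.807% (0.167 to 2.34) of 372 Keap1 cKO cells of cluster 3 and 2.47% (0.677 to 6.20) of 162 Keap1 cKO cells of cluster 11. In control T cells it was seen in 0 of 57 cells of cluster 3 and 0 of 58 of cluster 11, which by the limit of 3 counts allows shares of cells with a UMI of up to 5.26% and 5.17%. The unthinned median depths of the T cells of cluster 3 were 8224.5 UMIs in the Keap1 cKO and 5299 UMIs in the control library. Gclc was seen in 27.7% (22.3 to 33.5) of Keap1 cKO and 8.31% (6.27 to 10.8) of control epithelial cells, Gss in 25.0% (19.9 to 30.7) of Keap1 cKO and 9.11% (6.97 to 11.6) of control cells, and Gsr in 21.2% (16.4 to 26.6) of Keap1 cKO and 4.15% (2.73 to 6.03) of control cells.

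Gclm differed from its partner in the pooled share. It was seen in 45.5% (39.3 to 51.7) of Keap1 cKO and 45.4% (41.4 to 49.4) of control cells, although its summed level was higher in the Keap1 cKO library. The libraries differ in their cluster mix, and cluster by cluster the shares differed from the pooled ones: in cluster 9 Gclm was seen in 55.0% (43.5 to 66.2) of 80 Keap1 cKO cells and 21.7% (10.9 to 36.4) of 46 control cells, in cluster 4 in 55.0% (43.5 to 66.2) of 80 Keap1 cKO cells and 52.4% (46.7 to 58.1) of 311 control cells, and in cluster 13 in 28.8% (17.8 to 42.1) of 59 Keap1 cKO cells and 21.8% (15.1 to 29.8) of 133 control cells. Slc3a2 was seen in 18.2% (13.7 to 23.4) of Keap1 cKO and 16.6% (13.8 to 19.8) of control cells, and Ggct in 1.89% (0.618 to 4.36) of Keap1 cKO and 2.56% (1.47 to 4.12) of control cells. For these 3 genes the intervals of the pooled shares overlapped. In cluster 9 Gclc was seen in 56.25% (44.7 to 67.3) of Keap1 cKO and 6.52% (1.37 to 17.9) of control cells. Its shares were 18.75% (10.9 to 29.0) in Keap1 cKO and 9.97% (6.87 to 13.85) in control cells of cluster 4. In cluster 13 they were 15.25% (7.22 to 27.0) in Keap1 cKO and 6.77% (3.14 to 12.5) in control cells. Like those of Gclm, the Gclc intervals overlapped in clusters 4 and 13 but not in cluster 9.

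In single Keap1 cKO epithelial cells some of the members were seen together. Of the 26 cells with an Slc7a11 UMI at 2000 UMIs, 19 also had Gclc, 73.1% (52.2 to 88.4), against 54 of the 238 cells without Slc7a11, 22.7% (17.5 to 28.5). Gsr was seen in 65.4% (44.3 to 82.8) of cells with and 16.4% (11.9 to 21.7) of cells without Slc7a11, and Gclm in 76.9% (56.4 to 91.0) of cells with and 42.0% (35.7 to 48.6) of cells without it. Gss, at 34.6% (17.2 to 55.7) with and 24.0% (18.7 to 29.9) without Slc7a11, had overlapping intervals. Over the 264 cells, the correlation of log values of Slc7a11 and Gclc was 0.38 (Pearson; Spearman 0.36). These cells share 1 library, its free RNA and 1 depth, are not replicates, and many hold 0 for both genes, so the value describes them only.

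The pairing with Slc7a11 was not alike in clusters 4 and 9, a difference that was not tested. In cluster 4 Gclc was seen in 8 of 10 cells with Slc7a11 and in 7 of 70 without, and the correlation was 0.66 over 80 cells. Before thinning, the 5 cluster 4 cells with the most Slc7a11 held 35 to 92 Slc7a11 and 121 to 215 Gclc UMIs each. Their part in these cluster 4 values was not tested. In cluster 9 Gclc was seen in 7 of 10 cells with Slc7a11 and in 38 of 70 without, and the correlation was 0.16 over 80 cells. Slc3a2, the partner chain, was seen in 7 of 10 cluster 4 cells with Slc7a11 and in 11 of 70 without, but in cluster 9 in 0 of 10 cells with Slc7a11 and in 5 of 70 without. In cluster 13 both of the 2 cells with Slc7a11 had Gclc, and the correlation was 0.56 over 59 cells.

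**Figure D4:**
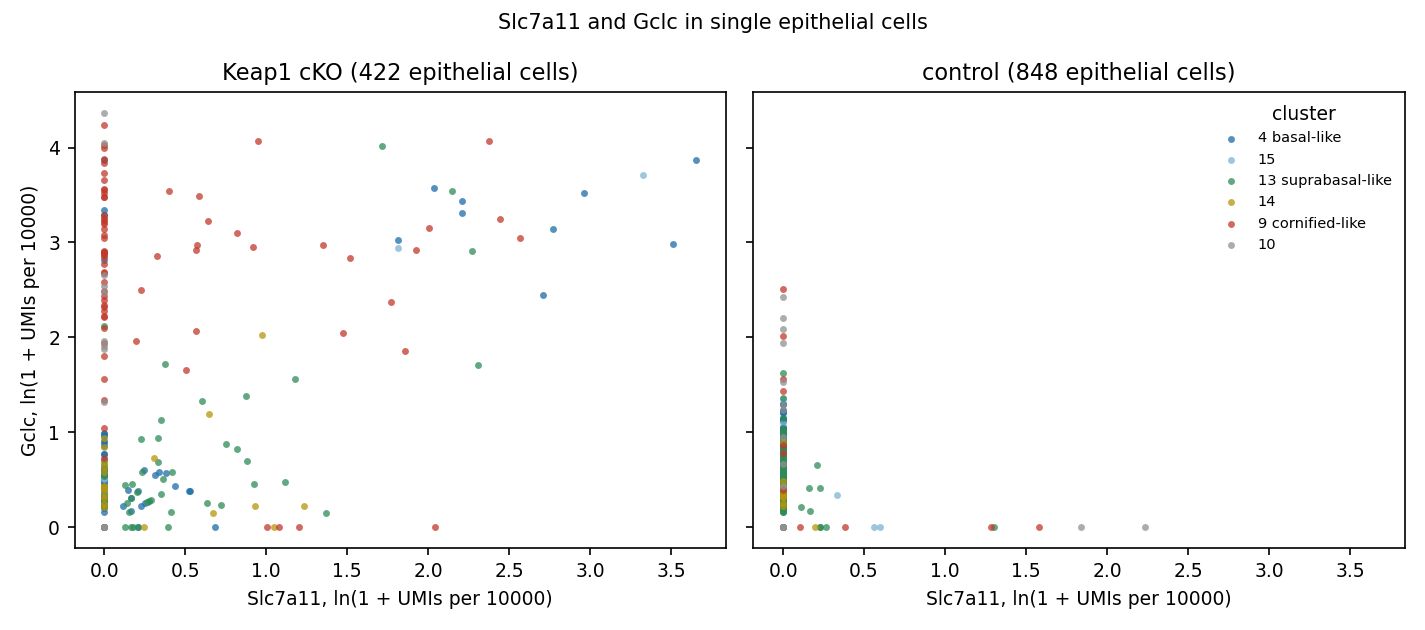
Each point is 1 epithelial cell, with Slc7a11 on the x axis and Gclc on the y axis as the natural log of 1 plus UMIs per 10000, coloured by cluster; Keap1 cKO (422 cells) is left and control (848 cells) right. Cells of cluster 4 with high Slc7a11 also have high Gclc, whereas many cells of cluster 9 have high Gclc with Slc7a11 at 0.

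The enzymes formed the tighter group in cluster 9. There 41 of the 45 cells with a Gclc UMI also had Gclm, 91.1% (78.8 to 97.5), against 3 of the 35 cells without Gclc, 8.57% (1.80 to 23.1). Gss was seen in 29 of 45 cells with and 3 of 35 without Gclc, and Gsr in 25 of 45 with and 2 of 35 without it. The Gclc and Gclm correlation was 0.82 over these 80 cells. Over all 21 pairs of the 7 genes in Keap1 cKO epithelial cells, correlations ran between -0.08 (Gss and Ggct) and 0.66 (Gclc and Gclm) with a median of 0.19, and 8 pairs exceeded 0.3. In the 626 control cells they ran between -0.05 and 0.11, and 0 pairs exceeded 0.3; Slc7a11, Gclc, Gss and Gsr were also seen in fewer control cells.

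The number of members per cell differed too. At least 4 of the 7 genes were seen in 37 of 264 Keap1 cKO cells, 14.02%, and in 3 of 626 control cells, 0.479%. In cluster 9 it was 23 of 80 Keap1 cKO cells and 0 of 46 control cells, in cluster 4 it was 10 of 80 Keap1 cKO cells and 3 of 311 control cells, and in cluster 13 it was 2 of 59 Keap1 cKO cells. In cluster 9, 25 of the 80 Keap1 cKO cells had none of the 7 genes and 23 had 4 or 5, with 6 cells at 2.

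**Figure D5:**
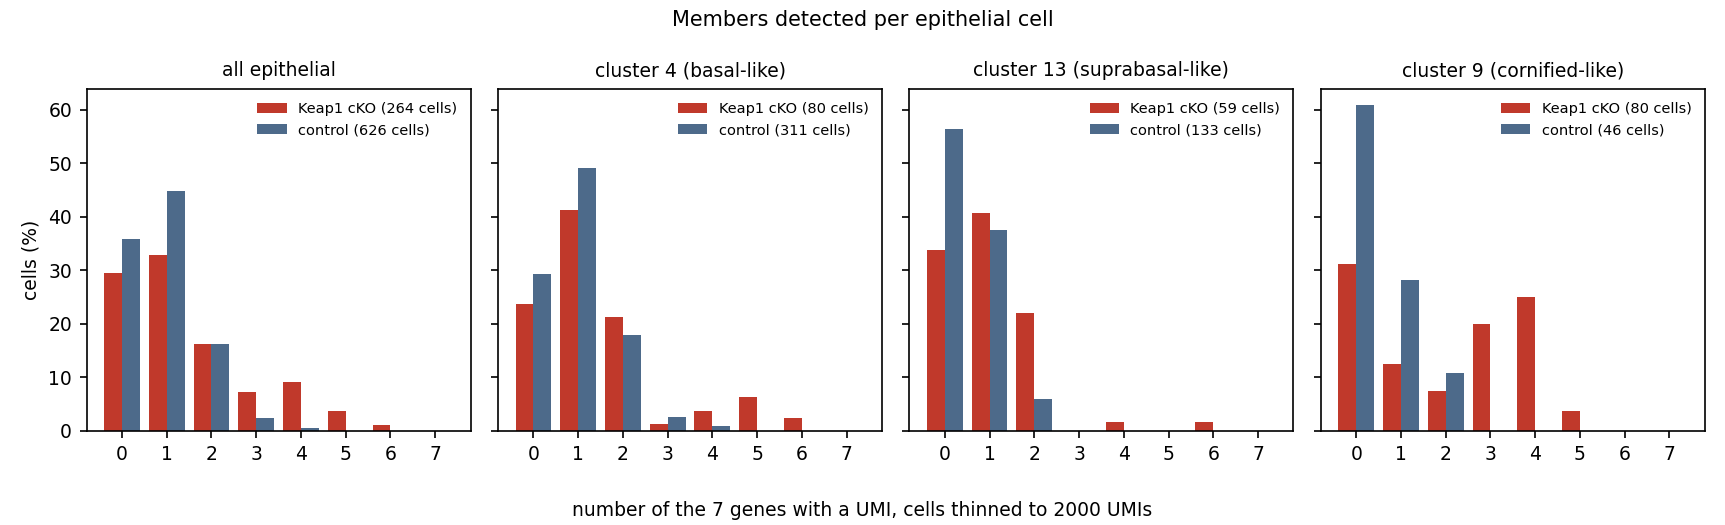
Percent of cells (y axis) by the number of the 7 genes with a UMI (x axis) after thinning to 2000 UMIs, Keap1 cKO left of control, for all epithelial cells and clusters 4, 13 and 9. Cluster 9 of the Keap1 cKO library has 2 humps, at 0 genes (31.3% of cells) and at 4 genes (25.0%).

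For Gclc more Keap1 cKO cells lay above the whole control range than for any other member. At 2000 UMIs no control epithelial cell had more than 2 Gclc UMIs, and 41 of 264 Keap1 cKO cells (15.5%) did, up to 12; 30 of them lay in cluster 9, 8 in cluster 4, 2 in cluster 13 and 1 in cluster 15. For Gclm 14 Keap1 cKO cells exceeded every control cell, for Slc7a11 9, for Gss 4, for Gsr 3, for Slc3a2 2 and for Ggct 0. In the 41 cells, Gclm was seen in 97.6% (87.1 to 99.9), Gsr in 68.3% (51.9 to 81.9), Gss in 65.9% (49.4 to 79.9) and Slc7a11 in 31.7% (18.1 to 48.1), while Ggct was seen in 0 of 41. Slc7a11 was seen in 6 of the 8 cells of cluster 4 among them and in 5 of the 30 of cluster 9, and Slc3a2 in 6 of 8 cells of cluster 4 and 3 of 30 of cluster 9.

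The other 223 Keap1 cKO cells, which hold at most 2 Gclc UMIs by that choice, had lower levels of Gclm, Gss, Gsr, Slc7a11 and Slc3a2 than the 41 cells. Gclm stood at 378.9 CPM in them and 329.1 CPM in the 626 thinned control cells, Gss at 100.9 CPM in these Keap1 cKO and 47.9 CPM in control cells, Gsr at 69.5 CPM in these Keap1 cKO and 21.6 CPM in control cells, and Slc7a11 at 31.4 CPM in these Keap1 cKO and 2.40 CPM in control cells. The Slc7a11 value rests on 14 UMIs in Keap1 cKO cells. Keap1 had 2 UMIs (24.4 CPM) in the 41 cells and 20 UMIs (44.8 CPM) in the other 223, but the 2 sets differ in cluster mix. In cluster 9 it had 0 UMIs in both, and in cluster 4 it had 2 UMIs (125.0 CPM) in the 8 cells and 13 UMIs (90.3 CPM) in the other 72.

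Over all cells outside the epithelium 3 of the 7 genes were at least 1.5-fold higher, against 27.8% of 14678 genes: Slc7a11, Gsr and Gclc. The mix of cells in this pool differed between libraries. Cluster 17, annotated as myeloid, had 56 Keap1 cKO and 4 control cells. It held 140 of the 294 Keap1 cKO and 22 of the 34 control Slc7a11 UMIs of the pool. The part of the mix in these pooled values was not tested. In fibroblast cluster 1, 0 of 6 measured genes were at least 1.5-fold higher, against 13.9% of 11522 genes. In fibroblast cluster 5 it was 1 of 6 (13.2% of 10549 genes), namely Gclc at 0.74 (0.14 to 1.35). T cell cluster 3 had 2 of 6 (21.6% of 9259 genes), namely Gsr at 1.17 (0.09 to 2.51) and Gss at 0.76 (-1.21 to 3.86), and in endothelial cluster 8 it was 1 of 6 (26.1% of 10055 genes), Gss at 0.60 (-1.13 to 2.97), with 2 lower (9.84%), Slc3a2 at -1.28 (-1.52 to -1.03) and Ggct at -0.85 (-1.70 to 0.07). T cell cluster 11 had 3 of 6 (23.2% of 7421 genes): Gclc at 2.16 (0.98 to 3.64), Gss at 2.48 (-0.17 to 7.86) and Gsr at 0.88 (-0.21 to 2.17). Ggct was lower there at -0.99 (-2.00 to 0.08), as were 9.34% of genes. Erythroid markers summed to 1060 CPM in the Keap1 cKO and 51290 CPM in the control cells of cluster 11, and their part in these values was not tested.

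In cluster 2, annotated as myeloid, 2 of 7 genes were at least 1.5-fold higher (15.8% of 9660 genes). Gsr had 176 UMIs in Keap1 cKO and 26 UMIs in control cells, a log2 ratio of 2.31 (1.71 to 2.97), and Slc7a11 had 40 UMIs in Keap1 cKO and 11 UMIs in control cells, 1.42 (0.43 to 2.53). Of the neutrophil markers in this cluster, Keap1 cKO cells held 88 Csf3r, 418 S100a8, 3 Retnlg and 1 Cxcr2 UMIs, and control cells held 5 Csf3r, 0 S100a8, 1 Retnlg and 0 Cxcr2 UMIs; their part in the Gsr value was not tested. S100a8 also had 353 UMIs in the Keap1 cKO fibroblasts of cluster 1 and 4 in the control fibroblasts.

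Among clusters with at least 20 cells, Slc7a11 and Gsr had their highest Keap1 cKO levels outside the epithelium, in cluster 17, annotated as myeloid, in which all 4 neutrophil markers were seen in both libraries. It had 56 Keap1 cKO cells, of which 35 had an Slc7a11 UMI (140 UMIs, 750.7 CPM), and 4 control cells, all with Slc7a11 (22 UMIs). Gsr had 120 UMIs in the Keap1 cKO cells and 10 UMIs in the 4 control cells. Gclc had 7 UMIs in the Keap1 cKO cells and 1 UMI in the control cells, so Slc7a11 gave 95.2% (90.4 to 98.1) of the joint Slc7a11 and Gclc UMIs in Keap1 cKO and 95.7% (78.1 to 99.9) in control cells of this cluster. The same share was at most 39.2% in any Keap1 cKO epithelial cluster. Basal keratinocyte markers summed to 402.1 CPM in the Keap1 cKO cells and 12340 CPM in the 4 control cells, and no ratio between the libraries is given for so few cells.

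Cluster 12, annotated as B cells but with 1 of 4 B cell markers in the table (5.25 CPM in Keap1 cKO and 6.54 CPM in control cells) and dendritic or Langerhans markers at 7314 CPM in Keap1 cKO and 12000 CPM in control cells, had 48 Slc7a11 UMIs in 178 Keap1 cKO cells and 0 in 34 control cells. Red blood cells of cluster 7 held Gclm with little Gclc: Gclm had 87 UMIs (71.9 CPM) in Keap1 cKO and 197 UMIs (102.8 CPM) in control red cells, and Gclc had 7 UMIs in Keap1 cKO and 6 UMIs in control red cells. In cluster 16, annotated as T cells, Gclm stood at 79.7 CPM in 48 Keap1 cKO cells and 359.7 CPM in 24 control cells, and basal keratinocyte markers summed to 275.8 CPM in the Keap1 cKO and 12080 CPM in the control cells; their part in the Gclm value was not tested. In endothelial cluster 8 Slc3a2 stood at 157.0 CPM in Keap1 cKO and 381.2 CPM in control cells, the highest control level of this gene.

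In the Keap1 cKO library 3 of the 7 genes (Gclc, Gclm and Gss) had their highest level in an epithelial cluster, and in the control library 4 did (Slc7a11, Gclm, Gss and Gsr), among clusters with at least 20 cells. With means over cells the count was 3 in each library. The highest control level of Slc7a11 rested on 4 UMIs in cluster 9 (9.02 CPM, 2.46 to 23.1). The 4 control cells of cluster 17, too few to be ranked, held 22 Slc7a11 and 10 Gsr UMIs. Over 33 cluster-by-library sums, the genes whose log2(CPM + 1) was most like that of Slc7a11 among 11997 genes were S100a9 (Pearson r 0.81), S100a8 and Il23a, and those most like Gsr were Map2k3 (0.83), Ptpn1 and Txnrd1. For Gclc they were Prdx1 (0.82), Ppif and Blmh, for Gss Alad (0.88), Bdh1 and Tmem54, for Gclm Krt14 (0.86), Fam83c and Lgals7, for Slc3a2 Vgll4 (0.93), Pak2 and Tes, and for Ggct Alyref2 (0.84), Med12 and Tfpt. Sums of 1 library share free RNA and depth, so these values are descriptions. Over the 264 thinned Keap1 cKO epithelial cells, the genes most like Gclc among 2952 were Gstm1 (0.86), Mt3, Blvrb, Gsta1 and Adh7, and those most like Slc7a11 were Spink5 (0.43), Pgrmc1, Cbr3, Gclc and Gstm2.

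Genes around the pathway are counted in the epithelium beside the shares of all 12638 genes, 17.5% higher and 15.8% lower, and a share near these is no result about a list. Of the 4 measured light chains that pair with Slc3a2, 3 were at least 1.5-fold higher, with a median of 2.11; without Slc7a11 it was 2 of 3, against 17.5% of all genes. Of these, Slc7a5, a carrier of large neutral amino acids, had a log2 ratio of 0.63 (0.41 to 0.85), Slc7a8 had 3.59 (2.34 to 5.12) from 39 UMIs in Keap1 cKO and 6 in control cells, and Slc7a6 had -0.20 (-0.66 to 0.26). Among 16 measured genes that supply cysteine, glutamate and glycine, 2 were at least 1.5-fold higher (Slc1a1 and Slc38a1) and 1 was lower, with a median of 0.05, shares no greater than the 17.5% higher and 15.8% lower of all genes. The lower gene was Cbs, cystathionine beta-synthase, which opens the route from homocysteine to cysteine: it stood at 5.10 CPM in Keap1 cKO and 35.4 CPM in control cells, -2.80 (-3.31 to -2.32). Cth, the next enzyme of that route, had -0.57 (-0.95 to -0.20), just inside the 1.5-fold mark. The abundant amino acid carrier Slc38a2 had 0.08 (-0.01 to 0.17), and Mat2a, which makes S-adenosylmethionine, had -0.21 (-0.32 to -0.10).

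Among 13 measured partners of glutathione other than transferases, 3 were at least 1.5-fold higher and 0 were lower, against 17.5% and 15.8% of all genes, and the median was 0.16. Glutaredoxin, Glrx, stood at 120.5 CPM in Keap1 cKO and 20.6 CPM in control cells, 2.55 (2.36 to 2.75), S-formylglutathione hydrolase, Esd, had 1.16 (1.11 to 1.22) and the epithelial glutathione peroxidase Gpx2 had 0.84 (0.80 to 0.89). Of 10 measured genes of the gamma-glutamyl cycle 1 was higher (Ggt1, 15 UMIs in Keap1 cKO and 16 in control cells) and 1 lower (Dpep1, 6 UMIs in Keap1 cKO and 28 in control cells), with a median of -0.17, again against 17.5% and 15.8% of all genes. The peptidases Lap3 and Cndp2 had -0.07 (-0.25 to 0.12) and 0.51 (0.21 to 0.80), and the cyclotransferases Chac2 and Ggact had -0.38 (-0.68 to -0.09) and -0.41 (-1.06 to 0.21). Of 8 transport genes 1 was higher, the exporter Abcc4 at 0.61 (0.33 to 0.89), and 1 lower, Slc25a40 at -0.68 (-1.32 to -0.08), with a median of 0.38, near the 17.5% and 15.8% of all genes; Slc25a39, the mitochondrial glutathione importer, had 0.53 (0.40 to 0.65), and the mitochondrial carrier Slc25a11 had -0.06 (-0.22 to 0.10). Of 12 genes of other cysteine fates 2 were higher and 1 lower, near the same shares of all genes. Sqor, sulfide quinone oxidoreductase, had 1.87 (1.72 to 2.03), Csad, which leads towards taurine, had -0.95 (-1.22 to -0.69), Cars, the cysteine tRNA synthetase, had 0.59 (0.33 to 0.85), the sulfurtransferase Tst had 0.06 (-0.07 to 0.18), and the median was -0.06. Of 8 ATF4 genes 2 were higher (Slc7a5 and Trib3) and 0 lower, against 17.5% and 15.8% of all genes, with a median of 0.27. Atf4 itself had 0.41 (0.28 to 0.53) and Asns, asparagine synthetase, had 0.50 (0.29 to 0.71). Trib3 had 1.32 (0.43 to 2.23) from 27 UMIs in Keap1 cKO and 20 in control cells. Atf3 at -0.40 (-0.65 to -0.15) and Ddit3 at -0.44 (-0.79 to -0.10) went the other way, inside the 1.5-fold mark. Sesn2 had 0.13 (-0.37 to 0.62) and Chac1 -0.27 (-1.585 to 0.93).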

How the data were processed

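The deposited table gives, for each cell and gene, a natural log value that the authors made by scaling UMIs to 10000 per cell and adding 1, as read from the values themselves. All 13321499 positive values came out as whole UMIs within 0.01, and these were used for sums. The submitters' processing notes name mm10, Seurat 4.0.2, Cell Ranger 6.0.1 and R 4.1.1, and the sources used here give no settings. The plan had assumed deposited counts. Library, cluster and cell type of each cell come from the authors' deposited annotation; doublets were not called.

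UMIs were summed per library and cluster with Python 3.11.15, numpy 2.4.6, scipy 1.17.1, pandas 2.3.3 and matplotlib 3.10.9, and given as CPM. Sums have exact Poisson intervals, ratios conditional binomial intervals and shares Clopper-Pearson intervals, all at 95%. Ratios needed 50 cells per library and, to be counted, 20 UMIs over both; levels needed 20 cells. A library with 0 UMIs was set to 3 counts over the group, and no fold is given where that floor lies above the other value. Scripts were tested on simulated data. The genes named were the 7 members and, of each pathway list, the 2 most abundant and the 2 most different genes with at least 100 UMIs, with all measured light chains, and the 3 most like genes of each member (5 over cells for Slc7a11 and Gclc). Slc1a1, Slc38a1, Ggt1, Dpep1, Cars, Trib3, Atf3, Ddit3, Sesn2 and Chac1 and the single markers were named after their values were seen. The members and the lists were chosen with earlier results of these data known. Alternatives were another scaling, means over cells, equal cluster weights, clusters left out, UMI minima and other thinning depths.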

Additional observations from a re-analysis of the deposited data

Results flagged for a closer look

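In some clusters outside the epithelium the direction between libraries was opposite to that in epithelial cells, with both counting intervals clear of 0, for Slc3a2 and Gclm; with 1 library per genotype this difference was not tested. Over all cells outside the epithelium Slc3a2 had a log2 ratio of 0.46 (0.37 to 0.56) and Gclm had -0.53 (-0.66 to -0.41). Yet Slc3a2 was below 0 in each cluster outside the epithelium with a ratio, from -0.05 (-0.43 to 0.35) in T cell cluster 3 to -1.28 in endothelial cluster 8. The cell mix differed between libraries. T cell cluster 3 held 378 Keap1 cKO and 59 control cells, and fibroblast cluster 1 held 187 Keap1 cKO and 545 control cells. The part of the mix in the pooled values was not tested. Slc3a2, at 0.55 in epithelial cells, had log2 ratios of -0.48 (-0.80 to -0.16) in fibroblast cluster 5 and -1.28 (-1.52 to -1.03) in endothelial cluster 8, which held 203 Keap1 cKO and 53 control cells. Gclm, at 1.07 in epithelial cells, had -0.40 (-0.70 to -0.11) in fibroblast cluster 1, -0.34 (-0.68 to -0.01) in fibroblast cluster 5, -2.00 (-4.34 to -0.34) in cluster 6 and -0.52 (-0.90 to -0.14) in red blood cells of cluster 7, but 0.09 in T cell cluster 3, 0.50 in endothelial cluster 8 and 0.30 in T cell cluster 11, with intervals that include 0. In cluster 6 the Gclm value rests on 3 UMIs in Keap1 cKO and 37 in control cells, and basal keratinocyte markers summed to 341.9 CPM in Keap1 cKO and 3119 CPM in control cells; their part in the value was not tested. With median-of-ratios scaling the 6 values in single clusters with intervals wholly below 0 kept their sign, between -0.26 and -1.87.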

How the results depend on the processing

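No paired analysis was possible because each genotype has 1 library. The count of 6 genes at least 1.5-fold apart ran between 5 and 7 over the alternatives. The epithelial median log2 ratio of 1.498 was 1.84 with means over cells, 1.72 with clusters weighted equally, 1.11 without cluster 9 and 1.68 without cluster 13. With means over cells the cluster medians were 1.87 in cluster 4 and 1.26 in cluster 13, and without the 5 cluster 4 cells with the most Slc7a11 the median there was 1.004. Thinned Slc7a11 shares of Keap1 cKO cells were 4.94% at 700 UMIs, 16.6% at 5000 and 24.2% unthinned, and of control cells 2.24% unthinned. Of Keap1 cKO cells without Slc7a11, Gclc was seen in 13.9% at 700 UMIs, 34.7% at 5000, 37.2% unthinned, 10.0% within cluster 4 and 54.3% within cluster 9. The Slc7a11 and Gclc correlation was 0.66, 0.16 and 0.56 within clusters 4, 9 and 13. Ggct turned to -0.42 with means over cells; no other gene changed sign. The cause was not tested. Of 77 single-gene values under alternatives, 47 stayed within counting error, 29 moved beyond it with the same sign and 1 is that of Ggct. Leaving out the highest Slc7a11 cells (6 in the epithelium, 5 in cluster 4) was added after the data were seen. Median-of-ratios scaling shifted log2 ratios of all genes by over 0.1 in cluster 9 (-0.17), cluster 6 (-0.13), cluster 8 (0.16) and cluster 11 (0.14), as the amount to subtract. The shift was 0.13 over all cells and 0.19 over all cells outside the epithelium. Among clusters without a ratio it was over 0.1 in cluster 14 (0.32), cluster 17 (0.23) and cluster 16 (0.18). With 1 library per genotype, genotype, animal and library cannot be told apart.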
